A study of Cardamine hirsuta with 12 samples.

Results

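The narrow shared regions with coinciding summits were places in the *Cardamine hirsuta* genome where an anti-GFP immunoprecipitation (IP) gave a compact peak both from plants with a Venus-tagged ChCUC1 and from plants without any tag, with its highest point at nearly the same base. A peak is a stretch where IP DNA was enriched over control DNA, and its summit is the base of highest enrichment. A member was a peak of the deposited case list, taken as the tagged IP, that lay on Chr1 to Chr8, was at most 2000 bp wide, shared at least 1 bp with a peak of the control list, taken as the untagged IP, and had its summit at most 250 bp from a control-list summit. Its midpoint also had to lie outside 1 stretch per chromosome in which peaks were dense. These stretches had been set from the same lists. The rule found 2270 of the 15299 case-list peaks (14.8%), and together they covered 2596.65 kb.

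CUP-SHAPED COTYLEDON proteins are plant transcription factors of the NAC family. They act at the boundaries between growing organs, and in crucifers with divided leaves they are active at the sites where leaflets form. In ChIP-seq, protein is fixed to DNA, the chromatin is broken and pulled down with an antibody, and the DNA is sequenced. An untagged plant taken through the same IP has no tagged protein for the antibody, so a peak found there as well as in the tagged plants is one that the tag was not needed to give.

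The tagged plants, called ChCUC1:V, carried genomic ChCUC1 fused to Venus, a relative of GFP, under its own upstream sequences (ChCUC1p::ChCUC1g:Venus). The untagged plants were wild-type Oxford (Ox), and the same antibody was used on both. All were grown on soil in short days and taken 14 days after germination, with about 20 g of shoots and mature leaves, without roots, for each replicate, fixed cold (4 °C) for 20 min with formaldehyde at 1%. The series has 12 libraries in 4 groups of 3, namely ChCUC1:V IP, ChCUC1:V input, Ox IP and Ox input. Sample titles set the groups, because the genotype field reads Oxford for all of them. Each IP library has its own relaxed peak list, called against pooled control reads, while the inputs have no list of their own, and the case and control lists hold the peaks that were reproducible between replicates. The study calls the replicates biological, but the labels do not say whether they were grown separately, so every p-value measures only the spread between these libraries.

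The 6 IP libraries differed in ways that touch every fold below. The relaxed lists of ChCUC1:V replicates 1 to 3 held 48631, 25083 and 21353 peaks, and those of Ox replicates 1 to 3 held 30996, 38180 and 41490. The shortest peak was 160, 410 and 525 bp in the ChCUC1:V libraries and 325, 170 and 200 bp in the Ox libraries. By the run numbers in the list names, ChCUC1:V replicates 1 and 2 and Ox replicates 2 and 3 were of 1 run, called the shared run here, while ChCUC1:V replicate 3 and Ox replicate 1 each had a run of their own. Read depth is unknown, since the lists give no read counts.

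Both summits, the width and the overlap chose the members, so they are given as a description. The median distance between the 2 summits was 66 bp, with quartiles of 32 and 116 bp, against a limit of 250 bp. In 13 regions the summits fell on the same base, in 218 (9.60%) they were at most 10 bp apart, and in 1556 (68.5%) at most 100 bp apart. The control summit lay at the higher coordinate in 1159 regions and at the lower in 1098, so neither side was favoured by much. Counted in steps of 50 bp, 904 regions fell in the first step, then 652, 417, 189 and 108 up to the limit, and 71, 41, 37, 28 and 30 in the 5 steps beyond it. The count was therefore already low where the limit of 250 bp was set, and it ran on past it at a low level with no gap. Of the 2835 narrow shared peaks outside the dense stretches, 80.1% were members and 565 had displaced summits.

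**Figure D1:**
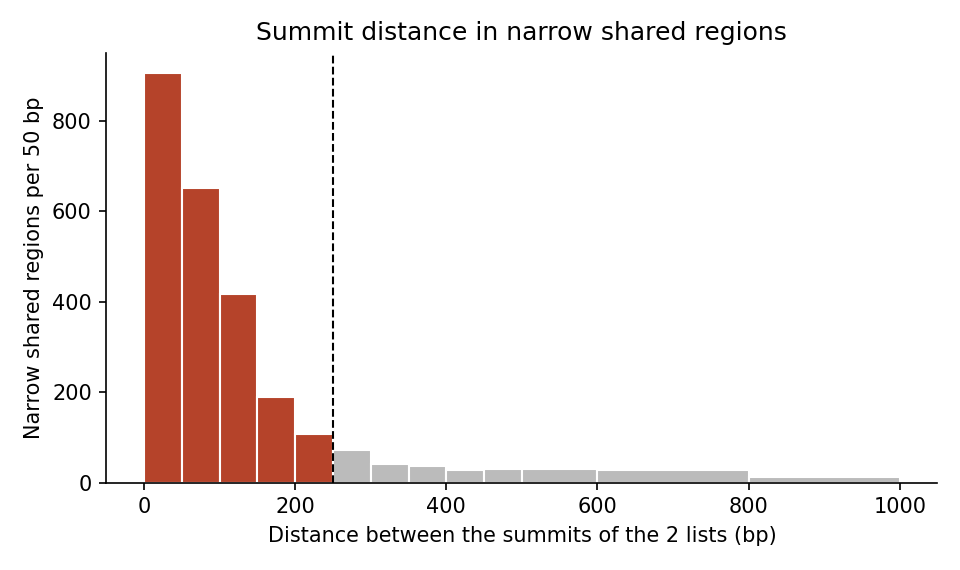
Number of narrow shared regions per 50 bp (y axis) by the distance between the ChCUC1:V and Ox list summits in bp (x axis), up to 1000 bp; red bars are members, grey bars displaced-summit regions, and the dashed line is the 250 bp limit. The bars fall from 904 in the first step to 108 in the last one inside the limit and 71 in the first one outside it.

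Regions lay close to both limits on either side. At a summit distance of 250 bp, the regions at Chr8, 8595820 to 8597735, and Chr6, 12880040 to 12880867, had case-list folds of 2.63 and 1.84. At 251 bp, the regions at Chr3, 2532816 to 2534515, and Chr6, 7779570 to 7780898, had folds of 2.03 and 2.04. The widest members were 1999 bp (Chr7, 5393276 to 5395274, fold 2.15) and 1998 bp (Chr3, 12858535 to 12860532, fold 2.67), and the narrowest regions past that limit were both 2002 bp wide (Chr7, 1732428 to 1734429, fold 1.98, and Chr3, 12963727 to 12965728, fold 3.23).

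Fold here is the enrichment of IP over control that MACS2 gives for a peak, on a linear scale. Over the members it ran from 1.37 to 4.44 in the ChCUC1:V list, with a median of 2.21 and quartiles of 2.04 and 2.45. Only 104 members reached a fold of 3 and 480 were below 2, so most of the regions were modest peaks. The matching Ox peaks had a median fold of 2.38 and a range of 1.47 to 3.56. The median −log10 p was 25.6 in the ChCUC1:V list and 15.9 in the Ox list. Fold and −log10 p thus ordered the 2 lists in opposite ways. Which control reads stood behind each list is not stated and read depth is unknown, so no genotype difference is read from either value. The score of both lists is a scaled irreproducible discovery rate (IDR), capped at 1000 for the most reproducible peaks. That cap was reached by 1400 members (61.7%) in the ChCUC1:V list and by 407 of their partners (17.9%) in the Ox list.

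Each member had its own Ox partner, 2270 in all. Of the members, 2198 met a single Ox peak, 70 met 2 and 2 met 3. The members were 380 to 1999 bp wide with a median of 1105 bp, and their Ox partners had a median of 1011.5 bp. The partner was the narrower of the pair in 1373 regions and the wider in 892, lay wholly inside the member in 828, and held the whole member in 395. Narrow regions with displaced summits were wider, with a median of 1540 bp. The summit sat near the middle of the member, at a median of 49.6% of its width, and in 1860 regions (81.9%) it fell in the central 50% of the peak.

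Members were found on every chromosome. There were 275 on Chr1, 254 on Chr2, 300 on Chr3, 310 on Chr4, 310 on Chr5, 276 on Chr6, 269 on Chr7 and 276 on Chr8. Per Mb outside the dense stretches this was 11.9 on Chr1, the lowest, and 17.7 on Chr5, the highest. The median fold was close to the same on each, from 2.17 on Chr7 to 2.24 on Chr8.

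Within a chromosome their density fell with distance from the dense stretch. In the first Mb from its nearer edge the members numbered 30.3 per Mb, in the second 29.6, in the third 26.4 and in the fourth 19.9. Farther out they numbered 10.7 per Mb at 4 to 6 Mb, 5.57 at 6 to 8 Mb, 2.59 at 8 to 10 Mb and 2.03 at 10 to 20 Mb. The median fold of the members did not fall with their number, and stayed between 2.18 and 2.35 over the 8 distance classes.

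Peaks of the ChCUC1:V list that met no peak of the Ox list, called tagged-only here, were spread more evenly. Of these tagged-only peaks, 68.6%, 59.8% and 72.5% still met a relaxed peak of Ox replicates 1, 2 and 3. They numbered 40.8 per Mb in the first Mb and 23.5 at 10 to 20 Mb. Within 3 Mb of the stretch lay 60.8% of the members (1381 regions) against 42.1% of the tagged-only peaks (1913), and beyond 8 Mb lay 3.70% of the members (84) against 16.4% of the tagged-only peaks (745). The share within 3 Mb was the higher one for members on 8 of 8 chromosomes, with the widest gap on Chr1 (73.8% against 38.3%) and the narrowest on Chr5 (54.2% against 45.8%). Nearness to the stretch was shared with the other regions present in both lists, at 65.3% for displaced-summit regions and 61.3% for broad shared regions. The stretches were drawn from the same peaks and regions on 1 chromosome are not independent, so these shares carry no test.

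**Figure D2:**
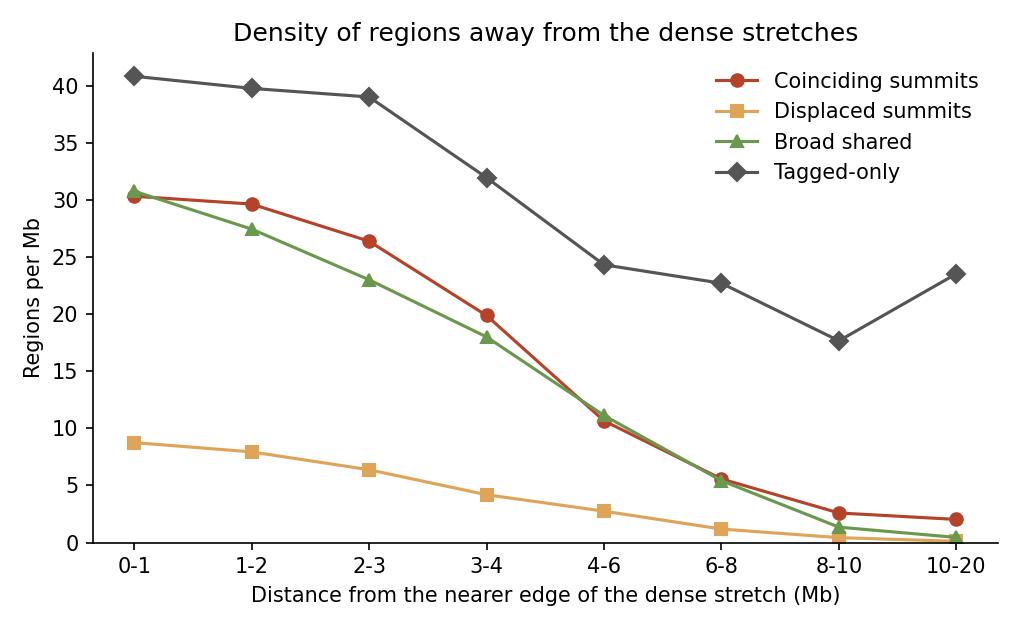
Regions per Mb (y axis) in classes of distance from the nearer edge of the dense stretch in Mb (x axis), over Chr1 to Chr8. Members (red circles) fall from 30.3 to 2.03 per Mb, while tagged-only regions (grey diamonds) are at 40.8 and 23.5 per Mb in the first and last class; displaced-summit (orange squares) and broad shared regions (green triangles) also fall.

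Members often lay close to each other. Over the 2262 gaps between neighbours the median was 19.03 kb, the smallest 152 bp and the largest 4168.4 kb. A gap under 1 kb separated 192 neighbouring pairs and one under 5 kb separated 573. Windows of 4 neighbouring members within 10 kb numbered 41 and held 122 members. The tightest such group spanned 6115 bp on Chr4. Its highest member, at 3145898 to 3147712, gave folds of 3.53, 2.60 and 2.54 for ChCUC1:V replicates 1 to 3, against 2.85, 2.83 and 2.46 in Ox replicates 1 to 3. The folds of the 2 genotypes overlapped there. In the same group, the members that began at 3149015 and 3150026 had equal folds (2.09) and −log10 p (10.6) in ChCUC1:V replicate 3. A relaxed peak that meets close neighbours counts for each of them, so their values are not independent.

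The single libraries were the source of both lists, so finding members in them is partly given by the rule. Of the 2270 members, 1968 (86.7%) met a relaxed peak in all 6 libraries, 242 in 5, 51 in 4 and 9 in 3, and none in fewer. Where exactly 1 library lacked a peak, it was ChCUC1:V replicate 3 in 106 regions and Ox replicate 2 in 86, but ChCUC1:V replicate 1 in 3 and Ox replicate 3 in 5. In full, ChCUC1:V replicates 1 to 3 met 99.9%, 97.3% and 93.0% of members, and Ox replicates 1 to 3 met 98.5%, 95.3% and 99.6%. ChCUC1:V replicate 3 also had the shortest relaxed list, of 21353 peaks, while Ox replicate 2 had 38180.

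With every list cut to the 21353 peaks strongest by −log10 p, as many as ChCUC1:V replicate 3 had, ChCUC1:V replicates 1 to 3 met 85.2%, 95.5% and 93.0% of members and Ox replicates 1 to 3 met 94.1%, 76.6% and 86.0%. The mean was 91.3 ± 5.36% in the ChCUC1:V libraries and 85.6 ± 8.77% in the Ox libraries (SD, n = 3 each), a difference of 5.67 percentage points (exact permutation test over libraries, two-sided, p = 0.5, where 3 against 3 cannot go below 0.1). The members were chosen from lists made of these same libraries, so this p-value decides nothing and the difference is a description. The ranges overlapped, since Ox replicate 1 was above ChCUC1:V replicates 1 and 3. Over the full lists the difference was −1.07 percentage points, so its sign depended on list length. At equal list length, but with a peak that covered at least 50% of the member required, it was 20.7 percentage points. The interval to be covered came from the ChCUC1:V list, so this value is a description. Median widths of peaks at members were 602, 923 and 1103 bp in ChCUC1:V replicates 1 to 3. In Ox replicates 1 to 3 they were 876.5, 456.5 and 641 bp, and the part of width in this difference was not tested. At equal length, 1194 members (52.6%) were met in all 6 libraries.

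Members were also ranked by −log10 p within each library's relaxed list. The median member stood at the 82.4th, 70.3rd and 68.1st percentile in ChCUC1:V replicates 1 to 3, and at the 76.6th, 74.5th and 79.4th percentile in Ox replicates 1 to 3. These ranks are a description, since the rule asked for a reproducible peak in both lists and so favoured strong peaks, and broad shared regions stood higher in each library, at the 84.0th to 89.1st percentile. The mean was 73.6 ± 7.69 in ChCUC1:V and 76.8 ± 2.46 in Ox (SD, n = 3 each), a difference of −3.23 with overlapping ranges (exact permutation test, two-sided, p = 0.5, smallest possible 0.1). As for support, this p-value and the next decide nothing, because the members were chosen from lists made of these libraries. A percentile depends on how many weak peaks a list holds, and the lists differ in length. Among the 21353 strongest peaks of each library, with members outside them set to 0, a comparison added after seeing the data, the median member stood at percentiles 59.8, 63.9 and 65.3 in ChCUC1:V replicates 1 to 3 and at 65.4, 49.9 and 59.7 in Ox replicates 1 to 3. The difference was then 4.70 (exact permutation test, two-sided, p = 0.5), so its sign depended on list length. Among the 4 libraries of the shared run alone, on the full lists, the difference was −0.59, and there 2 against 2 cannot go below 0.333.

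Summits of single libraries were set against the point midway between the 2 list summits. That point comes from the summits that chose the members, and the lists come from these libraries, so the distances are given as a description with no test. The median distance was 70.0, 62.5 and 97.2 bp in ChCUC1:V replicates 1 to 3, and 59.2, 80.5 and 66.5 bp in Ox replicates 1 to 3. The largest distance came from ChCUC1:V replicate 3, whose peaks at members had the largest median width, 1103 bp, against 456.5 bp in Ox replicate 2, which had the smallest, and the part of peak width in this distance was not tested. The mean was 76.6 ± 18.3 bp in ChCUC1:V and 68.8 ± 10.8 bp in Ox (SD, n = 3 each), a difference of 7.83 bp with overlapping ranges. Without ChCUC1:V replicate 3 the difference was −2.50 bp, and within the shared run it was −7.25 bp. The summit of single libraries lay within 250 bp of that point in 83.6% (ChCUC1:V replicate 3) to 90.7% (ChCUC1:V replicate 2) of the members met. In 996 of the 1968 members with 6 peaks (50.6%) all 6 summits did so, in 581 (29.5%) the 6 summits spanned at most 250 bp from first to last, and in 42 at most 100 bp.

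**Figure D3:**
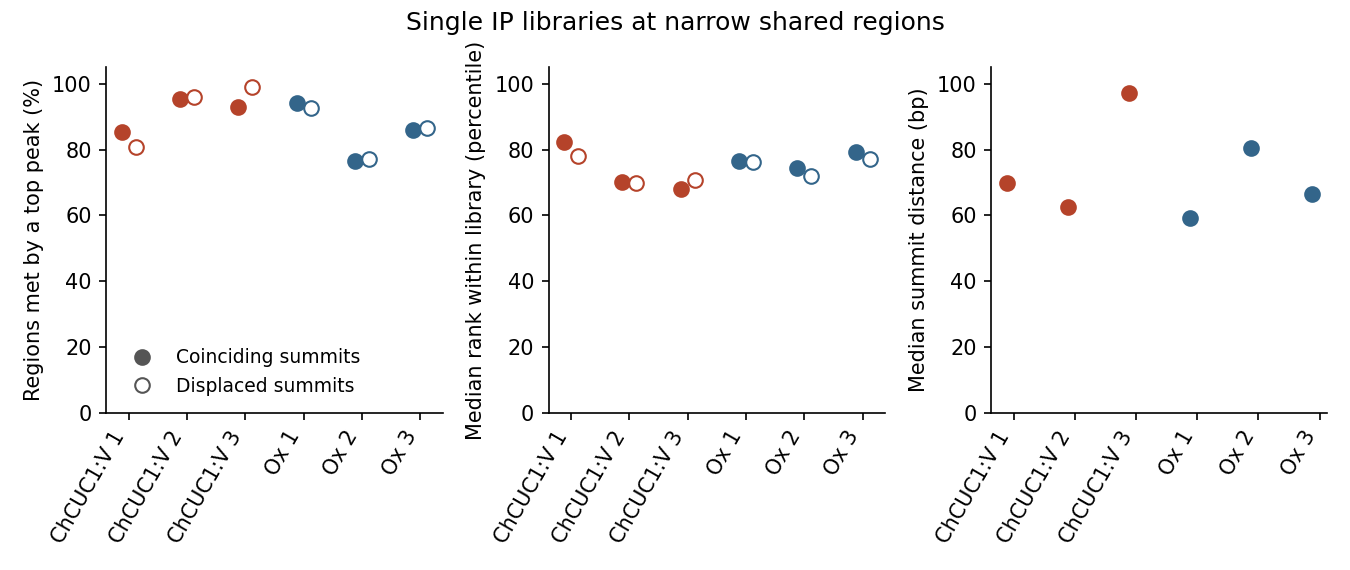
Values in each IP library (x axis, ChCUC1:V in red left of Ox in blue): the percent of regions met by the 21353 strongest peaks, the median rank within the library as a percentile, and the median distance in bp from the library's summit to the midway point of the list summits. Filled circles are members and open circles displaced-summit regions, for which the distance is not drawn because the rule sets it; members lie at 76.6% to 95.5%, at percentiles 68.1 to 82.4 and at 59.2 to 97.2 bp, with both genotypes overlapping in each panel.

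The members were next set against narrow shared regions with displaced summits, within each library. The median fold of members was 2.75, 2.18 and 2.03 in ChCUC1:V replicates 1 to 3 and 2.31, 2.86 and 2.48 in Ox replicates 1 to 3, against 2.65, 2.18, 2.07, 2.30, 2.86 and 2.48 for the displaced-summit regions in the same order of libraries. The difference, members minus displaced, was 0.0982 in ChCUC1:V replicate 1 and −0.0374 in ChCUC1:V replicate 3, and the other 4 lay between 0.00012 and 0.0116. The mean difference was 0.0122 ± 0.0454 (SD over 6 libraries), above 0 in 5 of 6 (exact sign-flip permutation test over libraries, two-sided, p = 0.531, smallest possible 0.03125). Without ChCUC1:V replicate 1 it was −0.00501, without ChCUC1:V replicate 3 it was 0.0221, and within the shared run it was 0.0248. In median rank the members were higher by a mean of 1.13 ± 2.39 percentile points, again in 5 of 6 libraries (same exact test, p = 0.281). That mean was 0.530 without ChCUC1:V replicate 1, 1.93 without ChCUC1:V replicate 3 and 2.31 within the shared run. ChCUC1:V replicate 3 was the library below 0 in both measures. These 2 p-values decide nothing either, because the classes were divided by summits of lists made from these libraries. The displaced-summit regions were also wider (median 1540 against 1105 bp), and fold was the highest of any overlapping peak. Both differences are therefore a description.

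How alike the libraries ordered the 1968 members by fold differed by genotype. Spearman's rho between pairs of ChCUC1:V libraries was 0.447 to 0.531, between a ChCUC1:V and an Ox library 0.177 to 0.314, and between pairs of Ox libraries 0.179 to 0.25. Over all 11496 case-list peaks met in 6 libraries the same ranges were 0.503 to 0.595, 0.342 to 0.423 and 0.385 to 0.443. Each range lay lower among members than over all peaks, and the ranges did not overlap where an Ox library was in the pair. Low values with an Ox library were shared with the 531 displaced-summit regions met in 6 libraries. There rho was 0.502 to 0.579, 0.204 to 0.354 and 0.219 to 0.280 in the same order of pairs. Their ChCUC1:V pairs lay close to those over all peaks, and only their Ox pairs did not overlap the range over all peaks. These are descriptions across regions, which are not replicates, and libraries of a genotype were called against pooled control reads that they may share.

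The fold of each case-list peak met in all 6 libraries was then compared between genotypes with limma, on log2 fold after each library's median was set to 0, with Benjamini-Hochberg adjustment over all 11496 peaks. Of the 1968 members in this fit (302 were met in fewer libraries and left out), 10 were higher in ChCUC1:V at an adjusted p under 0.05 (0.508%), where 0.296% of all peaks tested were, and 3 were lower (0.152%), where 0.0348% were. In both directions together this was 13 members (0.661%) against a background of 0.331%. The rule required a peak in both lists, which are made from these same libraries, so nothing about the members as a class is read from those shares. At an unadjusted p under 0.05 there were 288 members (14.6%), against 1489 of all 11496 peaks.

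The median log2 difference, ChCUC1:V minus Ox, was −0.0046 over the members and 0.0121 over all peaks, and 968 members (49.2%) were above 0. The median size of the difference, 0.12, was no larger than its median standard error, 0.12. Without centring, the median of all peaks moved to −0.11 on the log2 scale, and limma called no member and no other peak. At an unadjusted p under 0.05 there were then 121 of 1968 members and 507 of all 11496 peaks. The calls are therefore differences relative to the median peak of each library. The count of calls also fell when any 1 library was left out: it was 3, 1 and 0 without ChCUC1:V replicates 1, 2 and 3, and 5, 11 and 3 without Ox replicates 1, 2 and 3. A fit on fewer libraries has less power, and its part in this fall was not tested. Calls over all peaks tested fell too, from 34 higher and 4 lower. They were 6 and 1, 4 and 0, and 2 and 0 without ChCUC1:V replicates 1, 2 and 3. Without Ox replicates 1, 2 and 3 they were 9 and 1, 24 and 3, and 14 and 0. Without ChCUC1:V replicate 3, where no member was called, 261 of 2074 members had an unadjusted limma p under 0.05, against 1194 of all 11915 peaks. Within the shared run 2 members were called, and over all 12225 peaks 2 were higher and 0 lower.

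**Figure D4:**
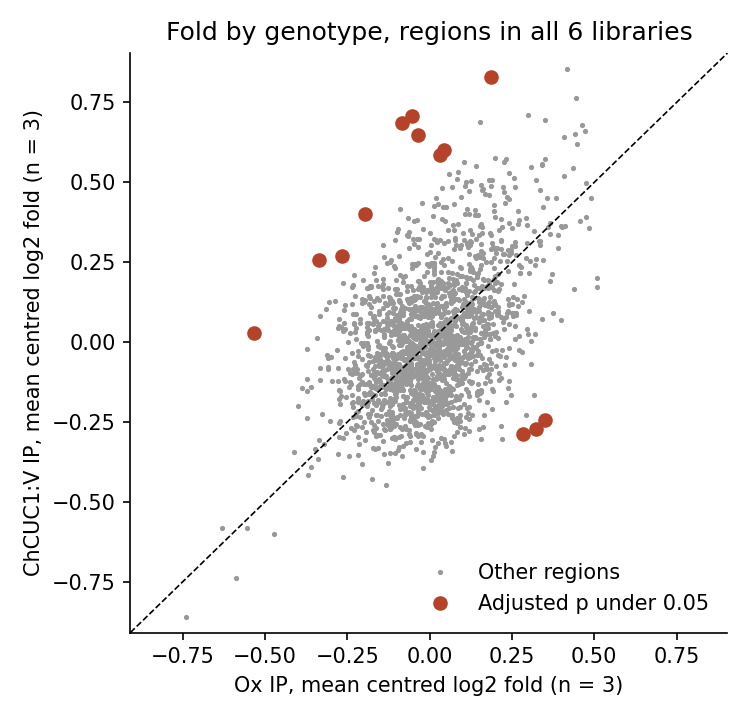
Mean centred log2 fold of 3 ChCUC1:V IP libraries (y axis) against that of 3 Ox IP libraries (x axis) for the 1968 members met in all 6 libraries; red points are the 13 with a limma adjusted p under 0.05, and the dashed line marks equal values. Most points lie about the line, with 10 red points above it and 3 below.

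Among members higher in ChCUC1:V, the region at Chr7, 13656961 to 13657970, gave folds of 3.89, 4.04 and 3.36 for ChCUC1:V replicates 1 to 3, against 2.65, 2.49 and 2.09 in Ox replicates 1 to 3. All 3 ChCUC1:V values were above all 3 Ox values, with a log2 difference of 0.77 ± 0.13 (SE; limma, Benjamini-Hochberg adjusted p = 0.0128). The region at Chr3, 8046688 to 8048316, had folds of 4.25, 3.56 and 3.65 in ChCUC1:V, against 2.80, 2.32 and 2.24 in Ox. Its groups did not overlap either, and its log2 difference was 0.76 ± 0.13 (limma, Benjamini-Hochberg adjusted p = 0.0128). Within the shared run these were the members called, both with a limma Benjamini-Hochberg adjusted p of 0.043. Both calls were lost without ChCUC1:V replicate 2 (adjusted p 0.071 for the Chr7 region and 0.061 for the Chr3 region, limma with Benjamini-Hochberg) and without ChCUC1:V replicate 3 (0.061 and 0.097 in the same order). The log2 differences were then 0.68 and 0.78 without ChCUC1:V replicate 2, and 0.77 and 0.71 without ChCUC1:V replicate 3.

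The region at Chr1, 1333305 to 1334125, had folds of 5.06, 4.04 and 3.49 in ChCUC1:V, against 2.72, 3.01 and 2.94 in Ox. The groups did not overlap, although the ChCUC1:V libraries were spread more widely (SD 0.793) than the Ox libraries (SD 0.154), and the log2 difference was 0.65 ± 0.12 (limma, Benjamini-Hochberg adjusted p = 0.0138). The region at Chr8, 11971420 to 11973325, had folds of 4.63, 3.16 and 3.35 in ChCUC1:V, against 2.01, 3.31 and 2.29 in Ox. Here the groups overlapped, since Ox replicate 2 was above ChCUC1:V replicate 2, and the call (log2 difference 0.68 ± 0.13, limma adjusted p = 0.0138, Benjamini-Hochberg) rested on the centred values. The region at Chr3, 18496251 to 18497917, had folds of 3.94, 3.34 and 3.37 in ChCUC1:V, against 2.51, 2.89 and 2.46 in Ox. The groups did not overlap, and the log2 difference was 0.56 ± 0.12 (limma, Benjamini-Hochberg adjusted p = 0.0351). By limma with Benjamini-Hochberg adjustment the Chr1 call was lost without any 1 of the 3 ChCUC1:V libraries (adjusted p 0.079, 0.071 and 0.061), the Chr8 call without any 1 of ChCUC1:V replicates 1 and 3 and Ox replicates 1 and 3 (0.053 to 0.107), and the Chr3 call without any 1 of the 6 (0.056 to 0.180). None of the 3 was past the threshold within the shared run (0.129, 0.278 and 0.274). The other 5 members called higher began at Chr4 17466311, Chr6 8288088, Chr4 5841416, Chr3 9630651 and Chr1 10081093, with limma Benjamini-Hochberg adjusted p of 0.0369 to 0.0458. In 2 of the 5 the groups did not overlap, a count with no share over all peaks beside it.

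The 3 members lower in ChCUC1:V lay on Chr1 and Chr3. The region at Chr1, 19536074 to 19537402, had folds of 2.33, 1.69 and 1.77 in ChCUC1:V, against 2.85, 3.39 and 3.07 in Ox, with no overlap and a log2 difference of −0.57 ± 0.12 (limma, Benjamini-Hochberg adjusted p = 0.0332). The region at Chr1, 13589335 to 13590214, had folds of 2.08, 1.93 and 1.80 in ChCUC1:V, against 2.91, 3.18 and 3.46 in Ox. Its groups did not overlap, and the log2 difference was −0.59 ± 0.12 (limma, Benjamini-Hochberg adjusted p = 0.0345). The region at Chr3, 12249372 to 12251215, had folds of 2.84, 1.70 and 1.59 in ChCUC1:V, against 2.54, 4.02 and 3.33 in Ox. ChCUC1:V replicate 1 was above Ox replicate 1 there, so the groups overlapped, and the log2 difference was −0.60 ± 0.13 (limma, Benjamini-Hochberg adjusted p = 0.0457). By limma with Benjamini-Hochberg adjustment, none of the 3 held within the shared run (adjusted p 0.260 each), the first 2 held only without Ox replicate 2 (0.043 and 0.025, against 0.079 to 0.159 without another library), and the last only without ChCUC1:V replicate 1 (0.033, against 0.066 to 0.230).

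The 2 members of highest case-list fold on each chromosome, 16 in all, show what the strongest of these regions looked like. They were chosen by their fold in the ChCUC1:V list, so their genotype difference is a description. The strongest of all members was at Chr3, 12205318 to 12206159, with a case-list fold of 4.44 and the summits 74 bp apart. It had folds of 5.20, 3.96 and 3.65 in ChCUC1:V, against 3.12, 4.18 and 2.99 in Ox. Ox replicate 2 was above 2 of the ChCUC1:V libraries, so even the strongest member overlapped between genotypes.

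Others of the 16 were nearly as strong in untagged plants. The region at Chr5, 7047507 to 7049332, with folds of 5.31, 3.56 and 3.29 in ChCUC1:V, had 2.71, 4.10 and 3.72 in Ox, and its Ox replicates 2 and 3 were above ChCUC1:V replicates 2 and 3. The region at Chr2, 11748013 to 11749657, had folds of 3.54, 3.47 and 3.05 in ChCUC1:V, against 3.26, 3.94 and 2.97 in Ox. Its mean was 3.35 ± 0.265 in ChCUC1:V and 3.39 ± 0.500 in Ox (SD, n = 3 each), values that overlapped throughout. Only the region at Chr7, 1879538 to 1880276, missed a library: it had folds of 4.73, 3.16 and 2.89 in ChCUC1:V and 1.85 and 3.17 in Ox replicates 1 and 3, with no peak in Ox replicate 2.

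Over the 16, the ChCUC1:V values were all above the Ox values in 3 regions, and the share of all peaks that did so is not given here. Of the 15 that could be fitted, 3 were called, where 34 of all 11496 peaks were called higher. All 15 had a log2 difference above 0, the direction that choosing by the ChCUC1:V list favours. ChCUC1:V replicate 1 was the highest of the 3 ChCUC1:V libraries in most of the 16, and among those 3 it also had the highest median fold over all members.

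**Figure D5:**
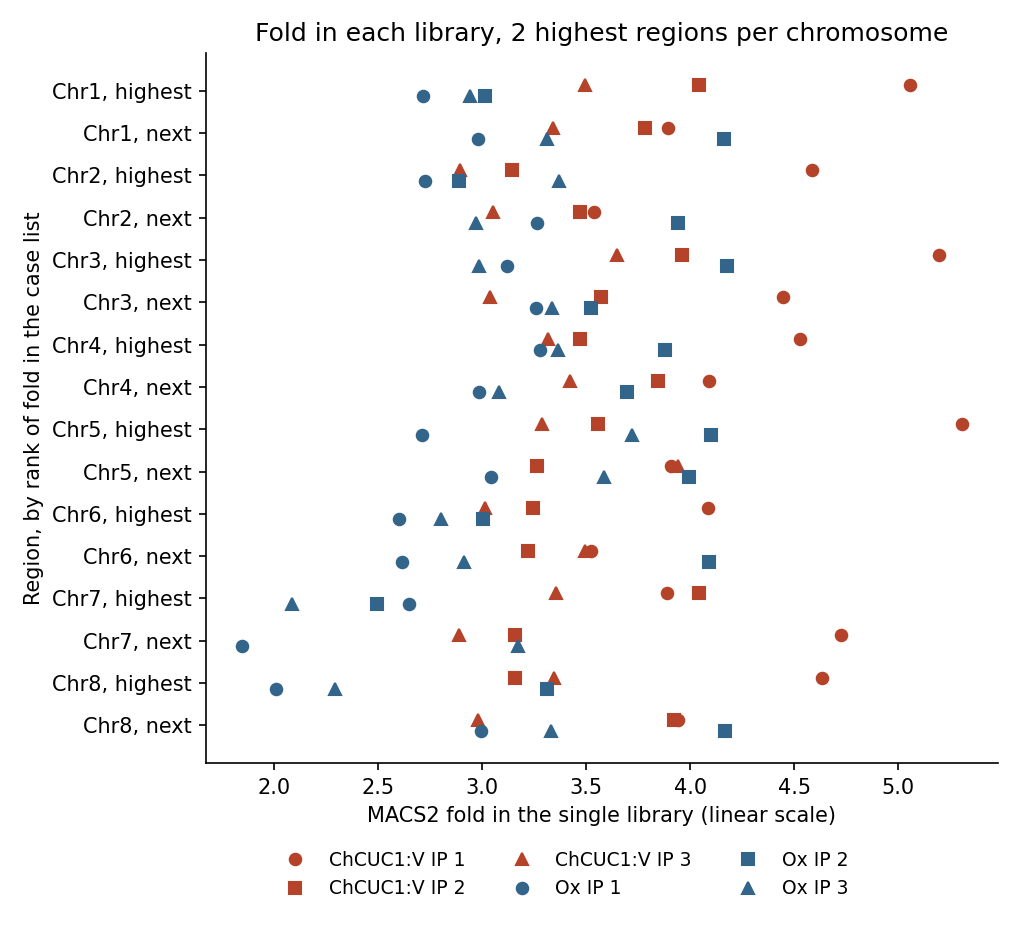
MACS2 fold in each IP library (x axis, linear) for the 2 members of highest case-list fold on each chromosome (rows, the higher one first), with ChCUC1:V libraries in red and Ox libraries in blue and a symbol for each replicate. In 3 of the 16 rows every red symbol lies right of every blue one, and the highest value, 5.31, is ChCUC1:V replicate 1 at the first Chr5 region.

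Some members had tagged-only peaks beside them. A tagged-only peak lay within 3000 bp of 756 members (33.3%). Tagged-only peaks were frequent near the dense stretches, at 40.8 per Mb in the first Mb. The same share was not taken for other regions, so it is not read as a trait of the members. The study's own annotation, held here in part, covered the neighbour of 270 of those 756 members. It placed that neighbour in or at a gene (exon, intron, promoter or transcription end) for 49, so most of these neighbours were intergenic. Most of the annotated peaks held were intergenic as well, at 1126 of 1997, against 239 of 290 pairs of member and neighbour. This difference was not tested. Of the genes, 6 are described in the study's gene tables. The gene is that of the neighbouring peak, and was not assigned to the member.

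A pair of the 6 neighbours lay in promoters. The member at Chr4, 13641987 to 13642721, lay 1310 bp from a tagged-only peak in the promoter of UXS6 (CARHR121890), named for the UDP-xylose synthases that make a sugar donor for cell wall polymers. That member had folds of 2.77, 2.52 and 2.26 in ChCUC1:V, against 2.21, 2.69 and 2.69 in Ox. The member at Chr4, 7690465 to 7691352, lay 1276 bp from a tagged-only peak in the promoter of CARHR118010, a short-chain dehydrogenase/reductase. It had folds of 2.94, 2.35 and 2.40 in ChCUC1:V, against 3.06, 2.998 and 2.24 in Ox. In both, the folds of the 2 genotypes overlapped at the member. The peak next to it had no partner in the Ox list, though tagged-only peaks could still meet a relaxed peak of single Ox libraries.

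The other 4 neighbours lay in exons. The member at Chr7, 13506209 to 13507530, was 721 bp from a tagged-only peak in UGT84A4 (CARHR222280), a UDP-glycosyltransferase, and had folds of 3.15, 2.46 and 1.96 in ChCUC1:V, against 2.43, 2.996 and 1.99 in Ox. The member at Chr7, 16560314 to 16561266, was 1469 bp from one in CARHR229390, a lipid-transfer protein-like gene, and had folds of 3.34, 2.44 and 3.03 in ChCUC1:V, against 2.28, 2.53 and 2.28 in Ox. The members beside CARHR025670, a proline-rich extensin-like gene of the cell wall family, and CARHR254340, an uncharacterized gene, lay 2418 and 2741 bp away. All 4 overlapped between genotypes in fold, and the one beside CARHR025670 had no peak in ChCUC1:V replicate 2.

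Members were not close to the peaks that the study assigned to the genes of the kinases ChWAG1 and ChWAG2, whose relatives in Arabidopsis act on the PIN auxin carriers. The nearest member lay 70789 bp from the ChWAG1 peak and 777963 bp from the ChWAG2 peak.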

How the data were processed

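Per the submitters' processing notes, Bowtie, MACS2 and bedtools were used; versions and the genome build are not given in the sources used here. The list names state removal of duplicate reads, calling against pooled controls and a relaxed p of 0.01. The fold deposited by the authors is a ratio of IP over control, the −log10 p is the authors' MACS2 value, and the score deposited in the case and control lists is a scaled IDR (540 at an IDR of 0.05). The authors' summit offset counts bp from the peak start. No label ties the case list to a genotype: it was taken as ChCUC1:V because every peak held of the study's ChCUC1 table is in it.

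Coordinates were counted from 1. For each case-list peak, the highest fold and −log10 p of any overlapping relaxed peak (at least 1 bp) was taken per library. Python 3.11.15, pandas 2.3.3, scipy 1.17.1, R 4.3.3 and limma 3.58.1 were used, and the limma step was tested on simulated data. Named were the 2 highest members per chromosome, up to 5 members called per direction, 2 regions either side of each limit and the highest member of the tightest group; the gene neighbours were chosen after their values were seen. Members, lists and tests were chosen with earlier results of these data known. Alternatives left out each library, kept only the libraries of the shared run, paired replicate numbers, and changed normalization, limits and matching. Sequences were not used here.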

Additional observations from a re-analysis of the deposited data

How the results depend on the processing

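The count of 13 members called was 8 with summits at most 100 bp apart, 2 within the shared run, 6 with quantile normalization, 0 without centring, 6 on log2 of the −log10 p, 6 with the peak of nearest summit and 3 at an IDR of 0.01, and ran from 0 to 11 when 1 library was left out. Over all peaks, 34 were called higher and 4 lower, whatever the summit limit. Those counts were 2 and 0 within the shared run, 10 and 3 with quantile normalization, and 0 and 0 without centring. On log2 of the −log10 p they were 16 and 1, with the peak of nearest summit 17 and 2, and at an IDR of 0.01 13 and 0. With replicate numbers as a block the count of members was 9, and over all peaks 20 were higher and 2 lower. Same-numbered libraries did not deviate together (correlations −0.0518, −0.0151 and −0.0242), so the numbers were not taken as pairs. In the same blocked design, support and rank each had an exact two-sided p of 0.75, with 0.25 the smallest 3 pairs allow. These decide nothing either, as the members were chosen from lists made of these libraries. The support difference of 5.67 percentage points became −1.07 on the full relaxed lists and ran from 1.17 to 9.94 leaving out 1 library. It was 20.7 with at least 50% of the member covered, an interval set by the ChCUC1:V list. The summit distance difference of 7.83 bp became −7.25 within the shared run, and ran from −2.50 to 14.9 leaving out 1 library. The fold difference between members and displaced-summit regions, 0.0122, became −0.000546 with summits at most 100 bp apart, and ran from −0.00501 to 0.0221 leaving out 1 library. The rank difference of −3.23 between genotypes became 4.70 among equal numbers of peaks, an alternative chosen after seeing the data, and kept its sign under the others run, as did the rank difference of 1.13 between members and displaced-summit regions under all of its own. Over the alternatives for the 8 called regions described above, the call was kept 60 times and lost 57 times with no sign reversed, and the cause was not tested. Fold depends on library depth, which is unknown, and 3 libraries a genotype limit every exact test.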
